A study of Drosophila melanogaster with 2 samples.

Results

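The 73 protein-coding genes of Drosophila melanogaster whose symbols begin with mRpL or mRpS encode the proteins of the mitochondrial ribosome, and their promoters were examined for peaks of the transcription factor Aristaless. They were taken by symbol from the Ensembl annotation, 73 of 13968 protein-coding genes on the 7 chromosome arms. Of these, 47 belong to the large subunit (mRpL) and 26 to the small subunit (mRpS). A few proteins of this ribosome carry other symbols, such as tko and bonsai, and are treated below with the other genes of mitochondrial gene expression. The data are chromatin immunoprecipitation sequencing (ChIP-seq) of whole embryos aged 0 to 24 h from the al-GFP strain, which carries an insertion that targets al. The flies expressed Aristaless, the product of al, fused to eGFP, and an antibody against GFP was used to precipitate it. There is 1 group of 2 biological replicates and no contrast between groups. Only peak lists were analysed, so the read depth of the libraries is unknown here. All cell types of the embryo are mixed, so the cells in which a site was bound were not resolved. No library of untagged embryos was analysed here, so binding of Aristaless and a general signal at accessible promoters cannot be told apart.

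Mitochondria keep a small genome whose protein products are core subunits of the respiratory chain and the ATP synthase. These are made on a dedicated ribosome inside the organelle. Its proteins are encoded in the nucleus, made in the cytosol and imported, so the nuclear genes have to be expressed together in most cells. Aristaless is a paired-class homeodomain protein known for patterning the tips of legs, antennae and wings, and the homeodomains of this class recognise cores such as TAATTA. The promoter elements searched below include 2 of fly housekeeping genes, the DRE (TATCGATA), bound by DREF, and Motif 1 (searched as GGTCACACT), bound by M1BP.

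Of the 73 mitochondrial ribosomal protein genes, 26 (35.6%) had a peak summit within 500 bp of their own transcription start site (TSS) in the series' thresholded peak list, which was made from both replicates. Among all protein-coding genes the share was 18.7%. With the list of replicate 1 alone the count was also 26 (35.6%, against 15.5% of all genes), and with that of replicate 2 alone it was 16 (21.9%, against 12.1%). For 41 genes a summit lay in the gene body or at most 2 kb from it (56.2%, against 33.3% of all genes). This wider count was 38 with the replicate 1 list (52.1%, against 28.1%) and 25 with the replicate 2 list (34.2%, against 22.2%). In these 3 lists the share of the family lay above that of all genes, but it depended on how summits were given to genes. With each summit given only to the gene with the nearest TSS, 14 members had one within 500 bp (19.2%, against 13.5%) and the same number within 2 kb (19.2%, against 18.3%). With summits inside the gene only, 3 members had one (4.11%, against 10.6%). That comparison takes no account of gene length, and a short gene has less room for a summit. At a global irreproducible discovery rate (IDR) of at most 0.0001, 12 members had one at the TSS (16.4%, against 9%) and 21 within 2 kb (28.8%, against 16.6%). The difference was not tested, because the family was chosen with results of these data known. The 41 genes had 41 different strongest peaks, so no peak was counted for more than 1 of them.

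Peaks stood at genes of both subunits. In the large subunit 15 of 47 genes (31.9%) had a summit within 500 bp of the TSS, and in the small subunit 11 of 26 (42.3%). The subunit is taken from the symbol; in mammals the products of 2 genes named for the small subunit, the counterparts of mRpS30 and mRpS18A, sit in the large one. Symbols numbered within the range of the bacterial ribosome (L up to 36, S up to 21) mostly mark proteins with a bacterial counterpart, and 16 of these 42 genes (38.1%) had such a summit. Higher numbers mostly mark proteins that mitochondria added, and 10 of these 31 genes (32.3%) had one. By chromosome arm the counts were 5 of 12 genes on 2L (41.7%, against 18.2% of all protein-coding genes there), 5 of 12 on 2R (41.7%, against 17%), 8 of 17 on 3L (47.1%, against 19.9%) and 8 of 21 on 3R (38.1%, against 20%). On the X it was 0 of 11, against 18.6% of all genes there.

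The signal of a peak, the authors' own measure of its strength, serves here to rank peaks of the same list. How it was scaled is not known. For the 26 genes the signal of the strongest peak at the TSS ran from 58.0 to 1915 with a median of 95.3. For the 2606 protein-coding genes with a summit at the TSS it ran from 2.14 to 2083 with a median of 108. The median of the family lay below that of these genes, but its upper quartile lay above theirs (328 against 187). With the 3848 peaks cut by rank into 4 equal groups, 10 of the 26 lay in the strongest group (38.5%, against 33.6% of the 2606 genes) and 1 in the weakest (3.85%, against 14%).

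**Figure D1:**
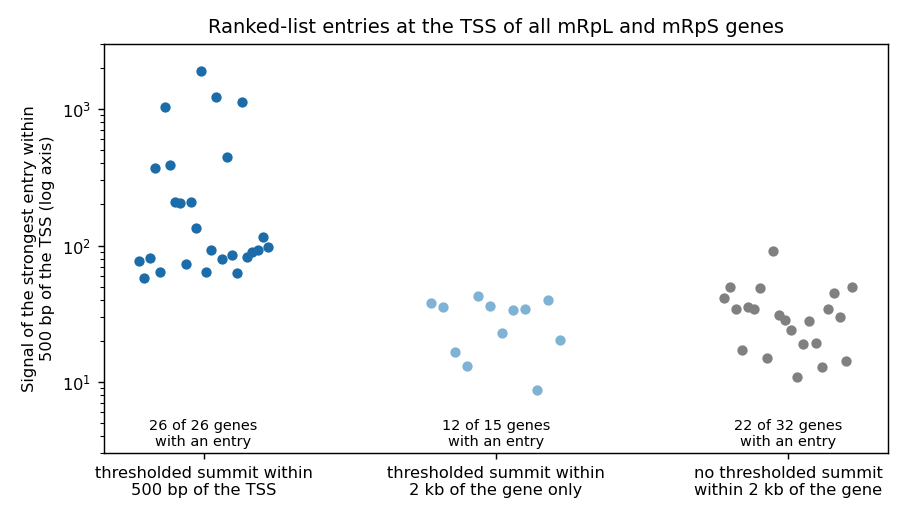
Signal (authors' value, log axis) of the strongest entry of the series' ranked list, before thresholding, within 500 bp of the TSS of each mitochondrial ribosomal protein gene, split by whether the gene has a thresholded summit at the TSS, only elsewhere within 2 kb, or none. Each point is 1 gene. The 26 genes of the left column start at 58.0, and in the right column the 22 genes with an entry reach at most 91.8.

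The strongest peak of the family stood at mRpL41 (FBgn0034001), which encodes a large-subunit protein without a bacterial counterpart. It spanned 2R from 15217581 to 15217926, with its summit 131 bp upstream of the TSS, and ranked 3 among the 3848 peaks with a signal of 1915. In the replicates' own ranked lists it had 1117 in replicate 1 and 799 in replicate 2. It was the only one of the 26 whose summit lay within 500 bp of no other protein-coding TSS: its head-to-head neighbour CG8079 begins 762 bp away. With other genes of any type counted, all 26 summits, this one included, lay within 500 bp of another gene's TSS.

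The next 6 peaks all lay at promoters that the ribosomal gene shares with a neighbour transcribed in the opposite direction. At mRpS10 (FBgn0038307), whose bacterial counterpart sits in the head of the small subunit, the peak spanned 3R from 15229376 to 15229692, at 1230 in the series' list, 722 in replicate 1 and 517 in replicate 2. Its summit lay 134 bp upstream of the TSS of mRpS10 and 123 bp upstream of Art3, an arginine methyltransferase gene. mRpS23 encodes a small-subunit protein without a bacterial counterpart. Its peak (2L, 13835315 to 13835618, signal 1130) had 677 in replicate 1 and 462 in replicate 2, and lay 397 bp upstream of mRpS23 but 95 bp upstream of CenG1A, which encodes a regulator of small GTPases. The peak at mRpL23, whose bacterial counterpart lines the exit of the peptide tunnel, was unlike these. It spanned 3L from 2373464 to 2373755 with 1036 in the series' list, 573 in replicate 1 and 465 in replicate 2, and its summit fell in an untranslated exon of mRpL23, 130 bp upstream of CG9004. At mRpS2 the peak (2L, 4850431 to 4850681) reached 445, with 254 in replicate 1 and 191 in replicate 2, and lay 137 bp upstream of mRpS2 and 85 bp upstream of Mon1, a gene of endosome maturation. The bacterial counterparts of mRpL24 and mRpL20 act early in the assembly of the large subunit. At mRpL24 (2L, 4945405 to 4945595, signal 388) the replicates had 243 and 146, and the summit lay 150 bp upstream of mRpL24 and 68 bp upstream of betaggt-I, which encodes a subunit of a prenyltransferase. At mRpL20 (3L, 13018051 to 13018248, signal 368) they had 211 and 158, and the neighbour was Icmt, a methyltransferase gene for prenylated proteins, 134 bp from the summit. All 6 peaks were in the thresholded lists of both replicates.

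The sequences between the divergent start sites are shown for 3 of these promoters and for the weaker peak at mRpL39, since the summits lie inside them. Each runs 5′ to 3′ on the strand of the ribosomal gene, from the base after the start of the neighbour to the base before the start of the ribosomal gene (dm6). Capitals mark TAATTA, the DRE and a match to the nuclear respiratory gene element; the positions given count from 1 at the left end.
mRpS10 with Art3 (chr3R:15229409-15229664, plus strand, summit at position 123): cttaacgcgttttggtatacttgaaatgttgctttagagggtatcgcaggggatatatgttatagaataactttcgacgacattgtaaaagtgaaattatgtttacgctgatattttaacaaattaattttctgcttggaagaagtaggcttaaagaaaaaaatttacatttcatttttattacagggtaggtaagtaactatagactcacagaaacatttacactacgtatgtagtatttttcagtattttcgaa
mRpS2 with Mon1 (chr2L:4850420-4850640, minus strand, summit at position 85): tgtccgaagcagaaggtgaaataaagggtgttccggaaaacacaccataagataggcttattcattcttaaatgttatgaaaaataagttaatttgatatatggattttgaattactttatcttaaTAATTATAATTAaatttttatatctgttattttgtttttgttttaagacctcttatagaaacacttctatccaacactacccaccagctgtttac
mRpL24 with betaggt-I (chr2L:4945362-4945578, minus strand, summit at position 68): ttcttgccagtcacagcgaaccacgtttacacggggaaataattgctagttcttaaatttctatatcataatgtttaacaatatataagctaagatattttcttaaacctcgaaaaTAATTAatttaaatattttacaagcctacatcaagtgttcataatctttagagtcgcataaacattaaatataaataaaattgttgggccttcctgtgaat
mRpL39 with Prosbeta2 (chr3L:14999667-14999950, minus strand, summit at position 159): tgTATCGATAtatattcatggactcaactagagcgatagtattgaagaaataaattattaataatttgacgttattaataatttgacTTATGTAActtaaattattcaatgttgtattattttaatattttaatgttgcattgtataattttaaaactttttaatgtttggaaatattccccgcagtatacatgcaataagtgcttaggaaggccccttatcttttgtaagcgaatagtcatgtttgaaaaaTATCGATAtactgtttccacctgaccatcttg
The strongest of these peaks, at mRpS10, has none of the marked elements in its interval. The interval of mRpS2 holds 2 abutting copies of TAATTA, starting at positions 127 and 133, and that of mRpL24 holds 1 at position 117, beside summits at 85 and 68. The interval of mRpL39 holds a DRE near each end, at positions 3 and 253, with the summit between them.

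The neighbours at the weaker peaks had varied roles. mRpL37 and mRpL39 encode large-subunit proteins that bacteria lack, whereas mRpL32, mRpL34 and mRpS6 have bacterial counterparts. The mRpL37 peak reached 208, with 115 in replicate 1 and 96.8 in replicate 2, and stood 100 bp upstream of mRpL37. The mRpL32 peak (3R, 31252700 to 31252830, signal 207, replicates 122 and 84.6) lay 94 bp upstream of mRpL32, between mRpL32 and qless, a gene of coenzyme Q synthesis. The mRpL34 peak (2R, 16098573 to 16098902, signal 207, replicates 117 and 87.8) lay 210 bp upstream of mRpL34, between mRpL34 and Dg, the dystroglycan gene. The mRpL39 peak (3L, 14999627 to 14999956, signal 134) lay 126 bp upstream of the gene, beside the proteasome gene Prosbeta2. Its values were nearest to equal, with 66.0 in replicate 1 and 70.6 in replicate 2. That ratio of 0.935 lay below the median of 1.40 over the family's promoter peaks, so it is not the most typical pair. The values were farther apart at mRpS6 (3L, 4364302 to 4364631, signal 115), 83 bp upstream of the gene and beside Cip4, with 78.5 in replicate 1 and 27.7 in replicate 2. Among the other 14 genes, mRpL35 (3R, 22023254 to 22023583, signal 73.7, replicates 43.2 and 32.9) faces Mitofilin, a gene of the inner-membrane MICOS complex, mRpL11 (76.5), whose bacterial counterpart helps to bind translation factors, faces the mitochondrial protease gene HtrA2, and mRpL18 (81.1) faces Taz, the gene for the cardiolipin-remodelling enzyme tafazzin. mRpS7 (97.4) faces the cell cycle kinase gene Cdk1, mRpS24 (83.0) faces Apc2 of the Wnt pathway, mRpL21 (64.4) faces the chromatin ATPase gene rept and mRpL17 (58.0) faces Tudor-SN. mRpS21 (85.3) faces the chaperone gene Droj2 and mRpS18B (79.1) faces Kua. mRpS31 (92.8), mRpS26 (90.0), mRpL43 (63.5) and mRpS22 (63.0) face hzg, CG13698, CG30183 and CG5003. At mRpL53 (93.2) the annotation gives CG33155 the same start and end, and the summit lies in an intron of AGO1, the Argonaute gene of the microRNA pathway.

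**Figure D2:**
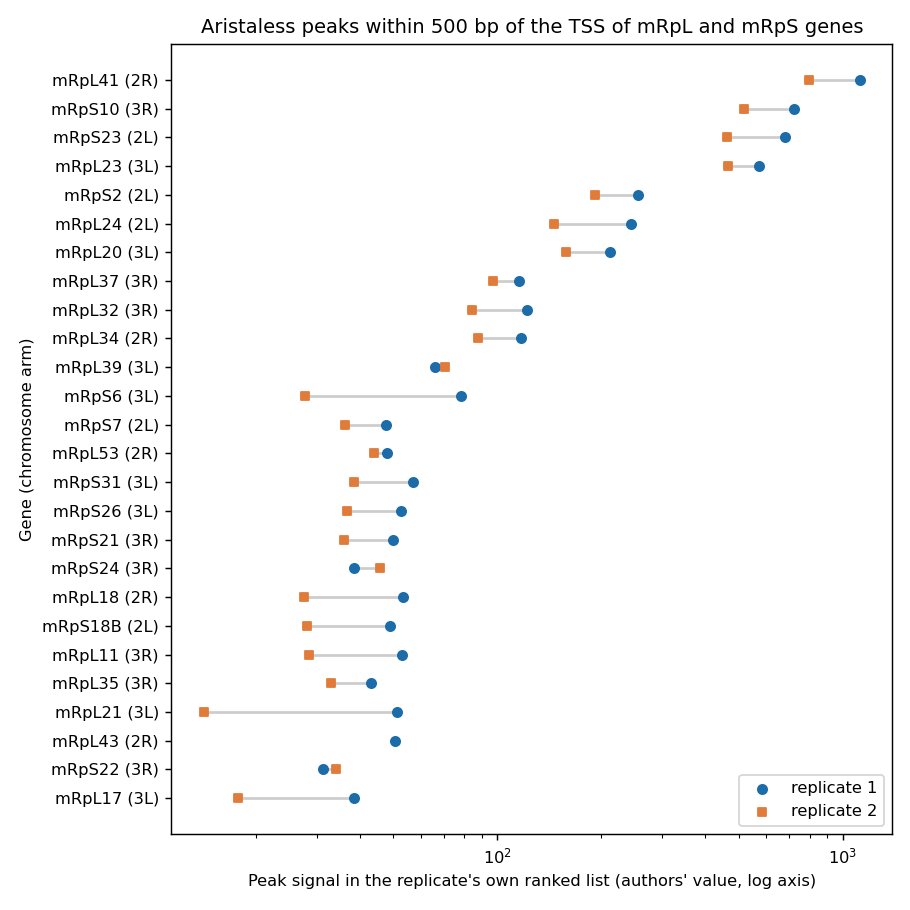
Signal of the 26 promoter peaks in each replicate's own ranked list (log axis), 1 row per gene, circles for replicate 1 and squares for replicate 2, ordered by the signal in the series' list. Replicate 1 is the higher of the pair for all but mRpL39, mRpS24 and mRpS22, and mRpL43 has no entry in replicate 2.

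The replicates ranked the strong peaks nearly alike and differed over the weak ones. Over the 25 promoter peaks with an entry in both ranked lists, Pearson's r of the log2 signals was 0.957 and Spearman's rho 0.774. These values describe peaks and not independent samples. The peaks come from a list selected by IDR, that is for agreement of the replicates. Part of the likeness is thus built in, and the values do not measure reproducibility. The signal of replicate 1 was the higher in 22 of 25 (88.0%), as it was for 87.3% of all genes with such entries, with a median ratio of 1.40 against 1.47 for all genes. Of the 2606 protein-coding genes with a summit at the TSS, 1520 had one in both replicate lists, 693 in 1 and 393 in neither. Of the 26 members, 15 had a summit at the TSS in the thresholded list of each replicate, 10 in that of 1 replicate and 1, mRpL35, in neither. Among those 10, mRpL53 was in the replicate 2 list and mRpL11, mRpL17, mRpL18, mRpL21, mRpL43, mRpS18B, mRpS21, mRpS22 and mRpS31 were in the replicate 1 list. mRpL39 and mRpS7 had 2 summits within 500 bp of the TSS in the series' list, and the stronger is given. The highest ratio of the replicates was at mRpL21, with 51.3 in replicate 1 and 14.2 in replicate 2.

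Most promoter peaks of the family also lay near the TSS of another gene. In 25 of 26 cases (96.2%) the summit also lay within 500 bp of the TSS of another protein-coding gene, against 60.7% of all genes with a summit at the TSS. With other genes of any type counted, it was 26 of 26 (100%, against 63.9%). With 250 bp in place of 500 bp for both distances the count was 15 of 22 (68.2%, against 52.9%). For mRpL53 the other genes are AGO1 and CG33155, and for the remaining 24 the other gene is the head-to-head neighbour. The median head-to-head distance was 312.5 bp for the 26 members and 509 bp for all genes with a summit at the TSS. A summit inside an interval of at most 500 bp lies within 500 bp of both starts. The share of 96.2% thus depends on the spacing of the genes, which the comparison with all genes does not take into account. The own TSS was the nearest start site in 13 of 26 cases (50%), against 70.6% of all such genes. The summit lay upstream of the own TSS in 24 of 26 cases (92.3%, against 90% of all such genes), and the median position was -128.5 bp relative to the TSS (-133 bp for all). Positions between the start sites were measured for members only, so whether they differ from those of all genes is not known. Of the 25 members with a head-to-head neighbour within 1 kb, 21 had the summit between both start sites, a median of 46.5 bp from the midpoint. In 11 of these 21 the summit was nearer to the neighbour. The 4 exceptions were mRpL23 and mRpS18B, with summits in their own untranslated exons, and mRpL11 and mRpL18, with summits in untranslated exons of HtrA2 and Taz.

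**Figure D3:**
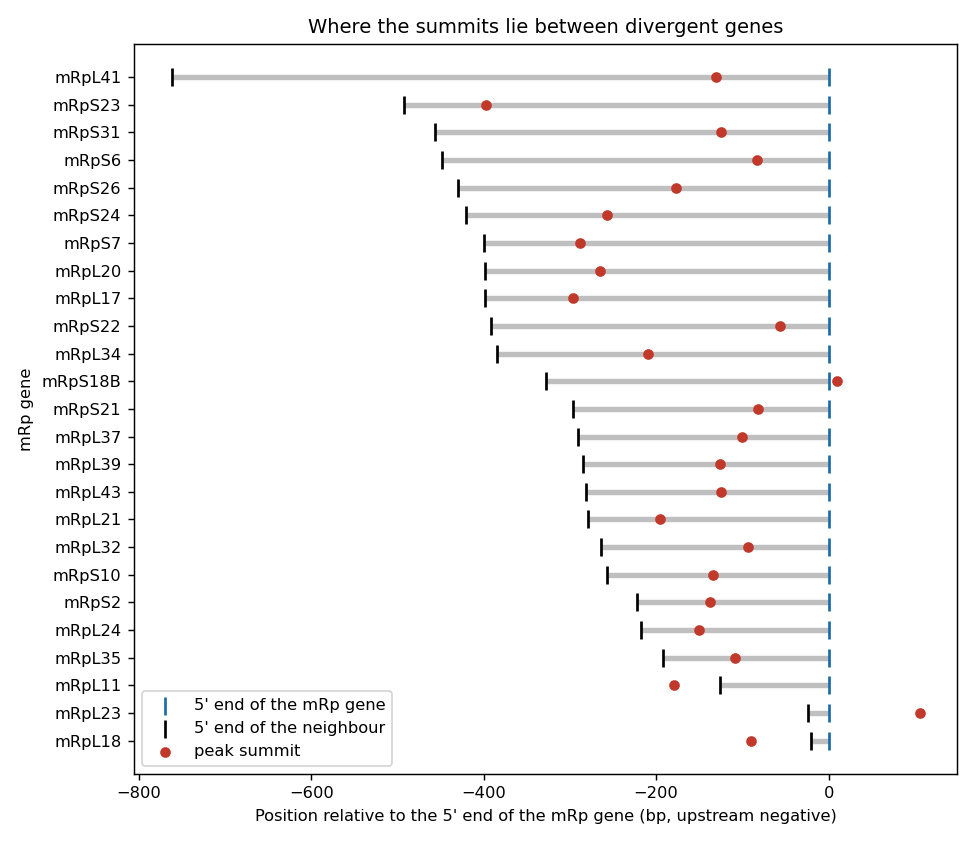
Position of the peak summit (circle) relative to the 5′ end of the mitochondrial ribosomal protein gene (at 0 bp, upstream negative) and of its head-to-head neighbour (black tick), for the 25 genes with a neighbour within 1 kb, ordered by the length of the interval. In 21 rows the circle lies between both ticks.

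Peaks were unevenly spread over the distance to the divergent neighbour. A head-to-head neighbour began within 1 kb of 56 of the 73 genes (76.7%), against 33.3% of all protein-coding genes. Where the interval was longer than 200 bp and at most 500 bp, 20 of 31 family members (64.5%) had a summit at the TSS, against 43.7% of the 2137 genes with such an interval. The counts in that class were 21 with the replicate 1 list (67.7%, against 39%) and 13 with the replicate 2 list (41.9%, against 31.6%). Where the interval was at most 100 bp, 2 of 17 members (11.8%) had a summit, namely mRpL23 and mRpL18, against 27.5% of all genes of that class. The 3 members with over 100 and up to 200 bp had 2 peaks (66.7%, against 26.9%), the 5 with over 500 and up to 1000 bp had 1 (20%, against 22.5%), and the 17 with no such neighbour within 1 kb had 1 (5.88%, against 11.2%). All 6 X-linked members in the class of over 200 to 500 bp lacked a peak in the series' thresholded list (mRpL16, which had one in the replicate 1 list, mRpL22, mRpL30, mRpL33, mRpL38 and mRpS30), whereas 20 of the 25 autosomal ones (80%) had one. The 5 autosomal members without one were mRpL1, mRpL44, mRpL50, mRpL54 and mRpS17. Over all genes of that class the shares were 31.2% on the X and 45.9% on the autosomes. The classes were set with the members' distances in view, and the differences were not tested.

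**Figure D4:**
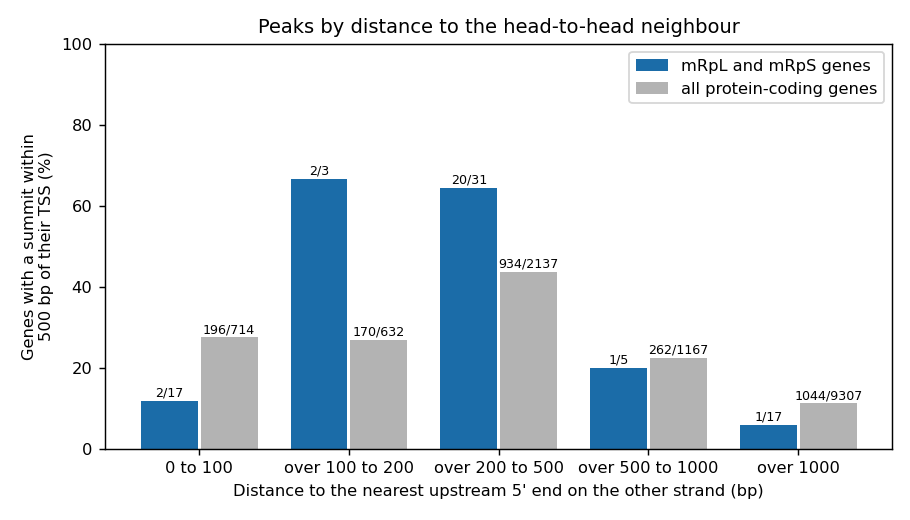
Share of genes (%) with a thresholded summit within 500 bp of their TSS, by the distance to the nearest upstream start site on the other strand (bp), for the mitochondrial ribosomal protein genes (blue) and all protein-coding genes (grey). The fractions above the bars give the genes with a summit over all genes of the class; the highest share resting on more than 3 genes is that of the family at over 200 to 500 bp, 20 of 31.

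For 15 more genes thresholded summits lay within 2 kb of the gene but not at the TSS, and these peaks stood mostly at other promoters. In 14 of the 15 the strongest summit was within 500 bp of the TSS of another protein-coding gene. That share was not computed for all genes, so it is not given as a trait of the family. Across the 15, the strongest summit lay 1209 to 7026 bp from the own TSS, with a median of 1954. The strongest was near mRpL28 (2L, 4977052 to 4977298, signal 425), 136 bp from the TSS of CG3792. The peak near mRpL40 (signal 382) lay 69 bp from mgr, a prefoldin gene, that near mRpL46 (354) lay 120 bp from PolD2, a gene for a DNA polymerase subunit, and that near mRpL13 (248) lay inside CG10602, 143 bp from its TSS. The mRpS9 peak (187) lay in an intron of mRpS9, 7026 bp from the TSS of mRpS9 and 181 bp from a TSS of wtrw. The peak near mRpL27 (139) lay 29 bp from the TSS of RpL27A, a gene of the cytosolic ribosome. The others were near mRpL19 (181), mRpL51 (174), mRpL2 (76.4), mRpL12 (75.0), mRpL33 (71.5), mRpL22 (69.7), mRpS18A (65.1), mRpL9 (58.0) and mRpS25 (48.4). The exception among the 15 was mRpL33, whose peak lay in an intron of norpA, 576 bp from the nearest TSS. The peaks near mRpL9, mRpS18A and mRpS25 overlapped no peak of either replicate's thresholded list. In the ranked lists of replicates 1 and 2 they had signals of 25.6 and 31.6, of 35.5 and 26.2, and of 32.1 and 18.4.

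The other 32 genes had no summit within 2 kb in the series' thresholded list. In the authors' conservative list of 3493 peaks, mRpL44 had a summit at its TSS, and mRpL55 and mRpS29 had one within 2 kb. For 22 of the 32 (68.8%) the series' ranked list, which is not thresholded, held an entry within 500 bp of the TSS, with signals from 10.9 to 91.8 and a median of 30.3. The share was 69.1% of all protein-coding genes with no thresholded summit within 2 kb, so such an entry did not set these members apart. The global IDR of these entries had a median of 0.626, where every thresholded peak has at most 0.01. mRpL47 stood apart: its entry at position -132 bp relative to the TSS reached 91.8 (52.4 in replicate 1 and 40.2 in replicate 2) with a global IDR of 0.000284, but it was absent from the thresholded list, as were 147 of the 3995 entries under that limit. Just outside the limit were mRpL16 (signal 49.7, IDR 0.0104) and mRpL44 (48.6, IDR 0.0139), beside mRpL17 (58.0, IDR 0.00229) and mRpS22 (63.0, IDR 0.00388) inside it. mRpL16 and mRpL4 each had a summit at the TSS in the replicate 1 list, with signals of 46.4 and 63.9. mRpS5 had a signal of 49.9, as high as mRpL16, but an IDR of 0.641. The entry of mRpS29, the counterpart of human DAP3, had a signal of 45.2 and that of mRpL1 41.5, with IDRs of 0.180 and 0.360. The other 16 entries, at mRpL36, mRpL42, mRpL3, mRpS17, mRpL48, mRpS30, mRpL50, mRpS11, mRpL52, mRpS14, mRpL55, mRpL30, mRpL45, mRpS35, mRpS16 and mRpL54, had signals of 35.3 or less. No entry within 500 bp was listed for mRpL4, mRpL10, mRpL14, mRpL15, mRpL38, mRpL49, mRpS18C, mRpS28, mRpS33 and mRpS34.

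The promoters of the family held the DRE more often than those of all genes, but the DRE was no more frequent at their summits than at other promoter summits. In a window from 250 bases before to 50 after the 5′ end, read on both strands, 15 of 73 genes (20.5%) had the DRE, against 9.36% of all protein-coding genes. It was found in 6 of the 26 genes with a summit at the TSS (23.1%, against 14.9% of all such genes) and in 9 of the 47 without. Within 100 bp of the summit it was found at 2 of the 26 peaks (7.69%), those of mRpS18B and mRpL32, against 8.22% of the 1958 peaks at protein-coding TSSs. The DRE matches in the windows of genes with a peak lay a median of 191.5 bp from the summit. At mRpL17, mRpL20, mRpS18B and mRpS23 a match was centred within 10 bp of the 5′ end of the gene. The same held at mRpL3, mRpL10 and mRpS29, which had no summit at the TSS. Motif 1 was found in 8 of the 73 windows (11.0%, against 6.04%). By summit at the TSS it was in 1 of the 26 genes with one and 7 of the 47 without. The share was 3.85% of the 26, against 8.21% of all genes with such a summit. These counts are small and were not tested.

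The homeodomain core was as frequent in these promoters as elsewhere. TAATTA was found in 15 of the 73 windows (20.5%), against 20.5% of all protein-coding genes. Within 100 bp of the summit it was found at 6 of the 26 peaks (23.1%), against 18.9% of all peaks at protein-coding TSSs. These 6 were mRpS2, mRpL24, mRpS7, mRpS18B, mRpS26 and mRpL43. The strongest 4 peaks of the family, at mRpL41, mRpS10, mRpS23 and mRpL23, had no TAATTA within 100 bp. The nuclear respiratory gene element (searched as TTACGTAA, TTACATAA, TTATGTAA and TTATATAA), described at fly genes of the respiratory chain, was found in 6 windows (8.22%, against 5.18%). The E-box CACGTG was found in 5 (6.85%, against 4.23%), GAGAG in 12 (16.4%, against 29.8%), TATAAA in 34 (46.6%, against 45.9%) and CGATA, the core bound by BEAF-32 and part of the DRE, in 43 (58.9%, against 47.4%). CGCATGCG, a core of the site bound by ewg, was found in 0 of the 73 windows (against 0.623%). Such matches of letters are descriptions and not shown sites. The GC content within 100 bp of the summit had a median of 32.3% for the 26 peaks, against 34.3% for all peaks at protein-coding TSSs.

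Among other genes of mitochondrial gene expression the share with a peak at the start site was lower than in the ribosomal family, a difference that was not tested. The list held 29 symbols for translation factors, ribosomal proteins with other names, and factors of mitochondrial DNA replication and transcription. Of the symbols, 23 were in the annotation. A symbol that was not found does not show that a gene is missing, since the gene may stand under another symbol, also one already counted. Of the 23, 3 (13.0%) had a summit within 500 bp of the TSS, against 18.7% of all genes. A summit within 2 kb of the gene was found for 7 (30.4%, against 33.3%). With so few genes these shares were not read as differing from those of all genes, and no test was run. Those with a summit at the TSS were mtSSB, PolG2 and mTerf5. mtSSB (signal 116) encodes the mitochondrial single-stranded DNA binding protein. PolG2 (70.0) encodes the accessory subunit of the mitochondrial DNA polymerase, and mTerf5 (60.8) a transcription termination factor family member. Peaks within 2 kb only were near the translation factor genes mRF1 (103), mRRF1 (70.1) and mEFG1 (63.3) and near bonsai (51.8). The summit at PolG2 lay within 500 bp of GatC and Polr2C as well, and that at mTerf5 within 500 bp of Non3. A stronger peak (546) lay within 2 kb of mTerf5 but not at its TSS. The summit 61 bp upstream of PolG2 was in the replicate 1 list, that of mtSSB in both replicate lists and that of mTerf5 in neither. The ribosomal protein gene tko had no summit within 2 kb. TFAM and PolrMT, the genes for the mitochondrial transcription factor A and RNA polymerase, had none within 2 kb.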

How the data were processed

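Peaks came from ChIP-seq of whole embryos of the al-GFP strain in 2 biological replicates of 1 group. The authors deposited 8 peak lists for assembly dm6, per the labels: a thresholded and a ranked list for each replicate, and 4 lists for the series. Each peak's signal (column 7 of the deposited lists), its −log10 q-value and the score of the ranked lists, −log10 of the global IDR, are the authors' values. No label or header read here names the aligner, the peak caller or its control, and the read depth is unknown. Possible control libraries that the labels name were not analysed here. Replicate signals were read from each replicate's own ranked list rather than from a list that holds both, because the columns of the joint lists do not name the replicates. No source read here states whether the lists share a scale, so ranks of signals were taken within a list. The comparisons of replicate 1 with replicate 2 are the exception. They set the values of both ranked lists side by side as deposited, without rescaling.

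Genes, transcripts and start sites came from Ensembl release 115 (BDGP6), and sequences from the RefSeq genome of release 6, the same build; all 73 genes have the same start and end in both. A peak was given to a gene where its summit lay within 500 bp of any annotated TSS of the gene, or inside the gene or within 2 kb of it, and the strongest such peak was described. The head-to-head distance runs from the outermost 5′ end of a gene to the nearest upstream 5′ end of a protein-coding gene on the other strand. The windows were tested on simulated summits placed upstream of genes, with the TSS window run on the outermost 5′ end only. The counts use every annotated TSS, a setting that was not simulated. With the outermost 5′ end only, the count at the TSS was also 26 (35.6%, against 16.8% of all genes). Shares were set beside those of all 13968 protein-coding genes and no test was run across genes, since the family and the lists of genes and motifs were chosen with earlier results of these data known. The text gives the 12 strongest promoter peaks with values in each replicate and summarises the others; a few details at these promoters are left unreported. The alternatives tried were the conservative list, single replicates, stricter IDR and q limits, other windows, and added ranked entries. Python 3.11.15 was used with pandas 2.3.3, numpy 2.4.6, scipy 1.17.1 and matplotlib 3.10.9.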

Additional observations from a re-analysis of the deposited data

How the results depend on the processing

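Counts at the TSS and within 2 kb (26 and 41 genes) were 24 and 39 with the conservative list (17.7% and 31.4% of all genes), 25 and 38 with q at most 0.05 (16.1% and 28.8%), and 27 and 42 (19% and 33.7%) with ranked entries at a global IDR of at most 0.01 added, an alternative chosen after seeing the data that adds mRpL47. Leaving out 1 replicate gave 16 to 26 genes at the TSS and 25 to 38 within 2 kb, the lower values from replicate 2 alone. A global IDR of at most 0.0001 left 12 genes at the TSS (16.4%, against 9% of all genes) and 21 within 2 kb (28.8%, against 16.6%). Giving each summit to the gene with the nearest TSS left 14 in both counts (19.2%, against 13.5% and 18.3% of all genes). With summits inside the gene only, 3 genes remained (4.11%, against 10.6%), a comparison that takes no account of gene length. The median signal of 95.3 was 60.4 to 92.3 in the lists of single replicates, which may not share a scale. The 25 shared promoters were 15 of 22 with a window of 250 bp (68.2%, against 52.9% of all genes with a summit) and 15 to 24 with 1 replicate (93.8% and 92.3%, against 65% and 61.5%). The 15 promoters with the DRE were 27 with the core ATCGAT (37%, against 23.3%). The other alternatives run, which were other windows for the summit or the promoter and another definition of the TSS or of the neighbouring gene, moved the counts by less than 1.5 times. No paired analysis was possible because the samples form 1 group and no groups were compared. The replicate lists differ over weak peaks, and the read depth behind these is unknown here.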
